A study of Arabidopsis thaliana with 57 samples.

Results

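The comparison set the libraries of the SPCH induction line against those of the FAMA induction line, with the 2, 3 and 4 h time points in 1 fit, and asked which genes the pair of factors set apart in the same sorted cells. It used 23 of the 57 libraries of the study, 12 of SPCH (4 at each time) and 11 of FAMA (4 at 2 h, 3 at 3 h and 4 at 4 h), all chosen by the line named in their labels. All lines were Arabidopsis thaliana Col-0 that carried the FAMA promoter driving GR-LhG4, a dexamethasone (DEX)-activated transcription factor, which then switched on a Venus-tagged form of SPCH or of FAMA through OPp. Seedlings were treated with 30 µM DEX at 10 days after germination, and their cells were protoplasted and sorted for Venus, with around 3000 cells in a sample. The remaining libraries were used only beside the comparison. They carried Venus with a nuclear localization signal (NLS, 11 libraries), or one of the factors joined to the repression domain SRDX (SRDX-SPCH, 11 libraries, and SRDX-FAMA, 12 libraries), in the same system. Because the FAMA promoter chose the cells, the sort held guard mother cells (GMCs), guard cells (GCs) and other cells in which this promoter is active, and every seedling kept its own SPCH and FAMA genes.

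SPEECHLESS (SPCH) and FAMA are related basic helix-loop-helix transcription factors known for early and late steps of the stomatal lineage, which can also be present in the same late cells, and each acts together with the partner proteins SCRM and SCRM2. SPCH starts the lineage and drives the asymmetric divisions of its early cells, whereas FAMA acts in the GMC and young GC, where it ends division after the single symmetric division that forms the GC pair and is needed for GC identity. FAMA is also needed to form myrosin cells, which store the thioglucosidases TGG1 and TGG2 along leaf veins. Dividing plant cells switch on a common set of late cell cycle genes, and many of their promoters carry the mitosis-specific activator (MSA) element, which is read by MYB3R factors.

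Depth was similar in both lines. Total counts were 15611364 to 58873262 in SPCH libraries (median 35097652) and 25026866 to 40839388 in FAMA libraries (median 32762645). Levels are given as CPM, the count of a gene relative to the library's total after scaling by the trimmed mean of M values. The induced transgene was counted together with the plant's own gene, and both genes were left out of the tests. SPCH stood at 7997 to 15705 CPM in its own line and 5.56 to 276 CPM in the FAMA line, and FAMA stood at 3484 to 7236 CPM in its own line and 131 to 311 CPM in the SPCH line, so all 23 libraries carried the transgene of their label. The SPCH value of 276 CPM came from FAMA 3 h replicate 3, which stood apart from the other FAMA libraries (25.8 CPM or less), and counts without this library are given below. A library used beside the comparison went against its label. The library labelled SRDX-FAMA 4 h replicate 2 held SPCH at 9640 CPM but FAMA at just 344 CPM, and SRDX values are therefore given without it first. GC genes were abundant in both lines. The summed level of 24 GC genes was 3687 to 7064 CPM (median 5457) in SPCH and 3918 to 6681 CPM (median 5374) in FAMA. A first principal component with 61.7% of the variance over the 23 libraries did not separate the lines, with 6 SPCH and 5 FAMA libraries on its negative side.

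Of 23843 genes tested with edgeR's quasi-likelihood test, 208 were higher (0.872%) and 174 were lower (0.73%) in SPCH than in FAMA at a Benjamini-Hochberg adjusted p under 0.05, 382 in all (1.6%). The genes higher in SPCH were led by the myrosinase TGG2, the protease SDD1, and genes of mitosis and cytokinesis such as CDKB2;1, ATK5 and AUR1. Lower in SPCH, and thus higher in FAMA, were the cyclopropane fatty acid synthase gene AT3G23510 and the histone acetyltransferase gene HAC4. So were 22 of 30 genes of xylem cell formation. That list was drawn up after the results were seen, so its count is not independent evidence. Most differences were modest. Fold changes ran from 1.16 to 4.68 (median 1.93) among the genes higher in SPCH and from 1.19 to 8.30 (median 2.06) among the genes lower in SPCH, and 95 and 90 genes, respectively, passed 2-fold. In every one of the 382 genes, the difference had the same sign at each time point at which the gene was tested. The pooled fit chose these genes from the same libraries, so this agreement was largely set by that choice. Levels were low for many of them, with both medians under 5 CPM in 67 of the 208 genes and 73 of the 174 genes. Since RNA was taken from pools of sorted cells, fewer cells of a type and less RNA per cell cannot be told apart.

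**Figure D1:**
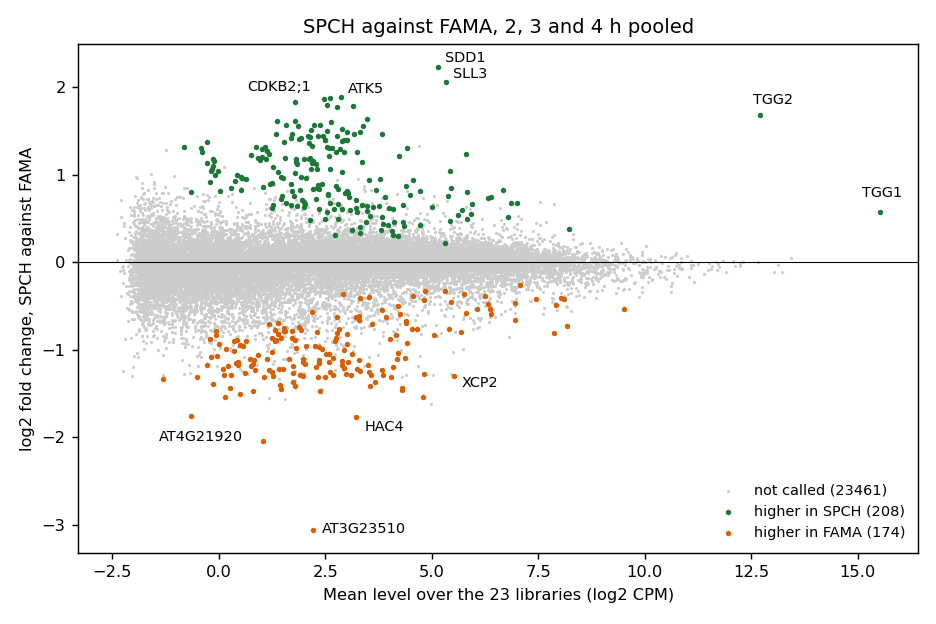
Log2 fold change of SPCH over FAMA (vertical axis, positive is higher in SPCH) against mean level (horizontal axis, log2 CPM) for 23843 genes, 1 point a gene, with the 208 genes higher and the 174 genes lower in SPCH coloured. TGG2 and TGG1 stand far to the right of the other genes higher in SPCH, and AT3G23510 is the lowest point.

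Few genes kept the lines fully apart. In 3 genes (0.0126% of those tested) every SPCH library lay above every FAMA library, and in 2 genes (0.00839%) every SPCH library lay below. The former were AT2G33793, annotated as a DNA ligase-like protein, the uncharacterized AT2G16270, and AT5G27550, annotated as a P-loop nucleoside triphosphate hydrolase. The latter were AT3G23510 and the uncharacterized AT5G61340.

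The gene with the smallest p was AT3G23510, on chromosome 3 at 8427557 to 8433340 (plus strand, TAIR10.1), annotated as a cyclopropane-fatty-acyl-phospholipid synthase, a class of enzyme that adds a methylene bridge to membrane fatty acids. Its level was 0.400 CPM (lowest), 0.856 CPM (median) and 2.42 CPM (highest) in the SPCH libraries and 6.36, 8.62 and 12.6 CPM in the FAMA libraries. Every FAMA library lay above every SPCH library. The log2 fold change was −3.05 ± 0.28 (SE, adjusted p = 2.25e-06, edgeR). Here the FAMA line stood high, since the 11 NLS libraries stood at 0.223, 0.839 and 2.20 CPM, within the range of SPCH or below it. SRDX-FAMA libraries also stood high, at a median of 7.18 CPM against 0.738 CPM in SRDX-SPCH, while the library that goes against its label stood at 1.02 CPM (median with it 7.11 CPM). Its neighbour AT3G23530 is 96.4% identical over 2809 of the 3191 exon bases of AT3G23510, so reads could be split between them, which leaves the level of each uncertain. The copy itself did not pass the test, with medians of 5.55 CPM in SPCH and 6.14 CPM in FAMA and a log2 fold change of −0.26 ± 0.18 (SE, adjusted p = 0.696, edgeR).

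HAC4, a histone acetyltransferase of the CBP/p300 type (chromosome 1, 20932451 to 20938352, minus strand), was 1.96, 4.04 and 8.95 CPM (lowest, median, highest) in SPCH and 8.75, 14.8 and 21.5 CPM in FAMA. The groups overlapped only between the highest SPCH and the lowest FAMA library. The log2 fold change was −1.76 ± 0.21 (SE, adjusted p = 0.000108, edgeR). Here the SPCH line stood low, since medians were 13.1 CPM in NLS, 13.1 CPM in SRDX-SPCH and 10.7 CPM in SRDX-FAMA (10.9 CPM with all libraries). The SRDX pair did not differ by the test (0.31 ± 0.16, adjusted p = 0.32). Of 23 chromatin genes on the list, HAC4 alone passed, beside 0.73% lower over all genes tested. Its paralog HAC1 stood at a log2 fold change of −0.09 ± 0.14 (SE).

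Turning to the genes higher in SPCH, TGG2 (chromosome 5, 9072708 to 9075777, plus strand) encodes a myrosinase, which splits glucosinolates when tissue is damaged. It reached 6587, 9570 and 15696 CPM (lowest, median, highest) in SPCH and 2025, 2855 and 7255 CPM in FAMA. The ranges overlapped at the upper end of FAMA. The log2 fold change was 1.68 ± 0.20 (SE, adjusted p = 0.000108, edgeR), and NLS stood at 1655, 2307 and 4136 CPM. At 2 h all FAMA libraries (2855 to 7255 CPM) lay above all NLS libraries (1655 to 2254 CPM), while at 3 and 4 h these lines overlapped. TGG1, the second myrosinase, which GCs express as well, had medians of 57638 CPM in SPCH and 37741 CPM in FAMA and a log2 fold change of 0.58 ± 0.13 (SE). Of the 3 myrosin cell genes on the list these 2 passed, beside 0.872% higher over all genes tested, while MVP1 stood at −0.02. The summed level of the 3 genes was 45451 to 84602 CPM in SPCH and 26757 to 67351 CPM in FAMA. The part of myrosin cell numbers in this difference was not tested.

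Several other genes shared the order of TGG2, with SPCH above FAMA and FAMA at or above NLS. PIP2B, a plasma membrane aquaporin, was 17.9, 28.1 and 35.3 CPM (lowest, median, highest) in SPCH and 9.21, 14.1 and 21.2 CPM in FAMA, with an NLS median of 12.6 CPM. Its log2 fold change was 0.87 ± 0.10 (SE, adjusted p = 0.000108, edgeR), but its paralog RD28 is 94.9% identical over 856 of its 1345 exon bases, so its count is uncertain. LSH1, a nuclear protein of the LIGHT-DEPENDENT SHORT HYPOCOTYLS family, was 4.60, 8.14 and 12.5 CPM in SPCH and 2.28, 2.74 and 6.96 CPM in FAMA (1.31 ± 0.17, SE). PDLP7, a protein of plasmodesmata, had medians of 8.10 and 3.57 CPM (1.06 ± 0.17, SE), and HCHIB, a basic chitinase, had medians of 4.66 and 2.06 CPM (1.18 ± 0.24, SE). In all of these the NLS median lay below both lines. HCHIB overlaps an opposite gene over 454 exon bases, and since the kit gives no strand, their reads cannot be told apart.

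**Figure D2:**
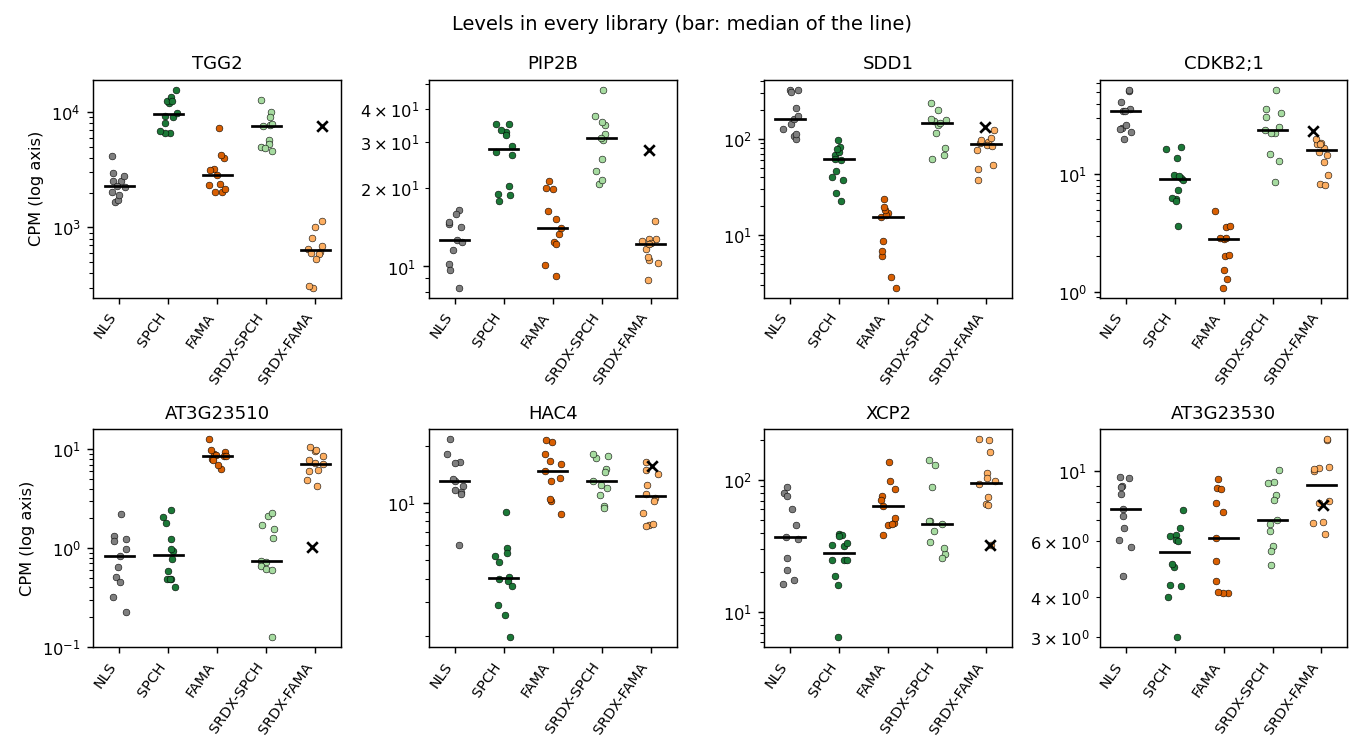
Level in each library (CPM, log axis) of named genes in the NLS line, both native lines and both SRDX lines, 1 point a library, with a bar at the median, and with a black x for the library labelled SRDX-FAMA 4 h replicate 2. AT3G23510 is high in both FAMA forms, HAC4 is low in the native SPCH line, and TGG2 is high in both SPCH forms. SDD1 and the cell division gene CDKB2;1 have their highest median in NLS.

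Genes of mitosis and cytokinesis gave the most calls of the lists among genes higher in SPCH. Of 27 on the list, 16 were higher in SPCH and none was lower, beside 0.872% higher over all genes tested. All 27 had a positive log2 fold change, and their median was 0.93, beside 0.01 over all genes tested. The list was chosen with earlier results of these data known. CDKB2;1, a plant-specific cyclin-dependent kinase of the G2-to-M transition, was 3.64, 9.16 and 17.0 CPM (lowest, median, highest) in SPCH and 1.08, 2.79 and 4.92 CPM in FAMA. The ranges overlapped little, and the log2 fold change was 1.87 ± 0.27 (SE, adjusted p = 0.000643, edgeR). AUR1, an Aurora kinase of the spindle, was 5.13, 8.59 and 14.5 CPM in SPCH and 1.08, 3.13 and 5.90 CPM in FAMA. Its log2 fold change was 1.60 ± 0.22 (SE, adjusted p = 0.000416). AUR2 and AUR3, CDKB2;2, the B-type cyclins CYCB1;1, CYCB1;2, CYCB1;4, CYCB2;4 and CYCB3;1, the spindle factor TPX2 and the anaphase activators CDC20.1 and CDC20.2 also passed. For the phragmoplast, which builds the new cell wall, the kinesins HIK (1.29 ± 0.24, SE) and PAKRP1 (0.57) and the microtubule bundler MAP65-3 (1.40 ± 0.26, SE) passed. CENH3 (0.03) and TES (0.01) were near 0, and POK2 missed the threshold with a log2 fold change of 0.98. CDC20.1 and CDC20.2 are 97.0% identical over 1366 bases, and CYCB1;2 is 97.7% identical to CYCB1;5 over 390 bases, so their separate counts are uncertain.

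Further division genes outside the list were chosen after their values were seen, so their shared direction is not independent evidence. ATK1 and ATK5 are kinesins that focus spindle poles, and their medians were 5.05 and 10.3 CPM in SPCH and 1.24 and 3.20 CPM in FAMA, with log2 fold changes of 1.83 ± 0.25 and 1.89 ± 0.28 (SE). EB1C, a microtubule end-binding protein (1.56 ± 0.27, SE), the checkpoint proteins BUBR1 (1.09 ± 0.20, SE) and BUB3.1 (0.61 ± 0.11, SE), and MYB3R-4, an activator of G2-to-M genes (0.84 ± 0.14, SE), passed as well. Of 44 tested genes annotated as kinesins, 13 were higher in SPCH (11 of them outside the list), beside 0.872% over all genes tested. None was lower and 31 did not pass, with 10 negative values and a median of 0.21. AUR1 and ATK5 share 290 and 391 exon bases, respectively, with genes on the other strand, and those reads cannot be told apart.

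The NLS line had a higher median than either line in the summed level of these genes. The study considered that its NLS sort held a different mix of cells from the SPCH and FAMA sorts, so NLS levels are given as descriptions, and the part of cell makeup in them was not tested. The summed level of the mitosis and cytokinesis list was 123, 193 and 287 CPM (lowest, median, highest) in SPCH, 80.5, 126 and 181 CPM in FAMA and 254, 367 and 657 CPM in NLS, so SPCH and FAMA overlapped in part and SPCH reached NLS only at its top. CDKB2;1 had a median of 34.6 CPM in NLS, and AUR1 had 22.3 CPM. By contrast, genes of DNA replication and the G1-to-S step were close to even. Of 26, CDT1B, a replication licensing factor, was higher in SPCH (1.19 ± 0.25, SE) and TSO2, a ribonucleotide reductase subunit, was lower (−0.40 ± 0.10, SE), and the median was −0.05. Of 10 D-type cyclins none passed with edgeR or DESeq2, and 2 had an unadjusted p under 0.05. Over all genes tested, edgeR called 0.872% higher and 0.73% lower. Of 16 inhibitors of cyclin-dependent kinases, SMR7 was lower in SPCH (−1.33 ± 0.28, SE) at medians of 0.202 and 0.452 CPM. In this list 4 genes were lower at an unadjusted p under 0.05 and 3 with DESeq2, and none was higher by either.

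The region 250 bases upstream of the annotated gene start was searched for AACGG on either strand (CCGTT is its reverse), the core of the MSA element, and for CACGTG, an E-box that reads the same on both strands and is a known binding motif of helix-loop-helix factors. The letters of these motifs cannot overlap each other. Sequences are shown for a pair of B-type cyclins and MAP65-3, as members of the division group with several matches, and for AT5G15190, a gene of unknown function among the 12 smallest p values that has both motifs. They are from the RefSeq annotation of TAIR10.1, all on the minus strand and written 5′ to 3′, and capitals mark the matches. CYCB1;1 lies downstream of chr4:17624309-17624558, CYCB1;2 of chr5:1861704-1861953, MAP65-3 of chr5:20964538-20964787 and AT5G15190 of chr5:4933621-4933870.
CYCB1;1: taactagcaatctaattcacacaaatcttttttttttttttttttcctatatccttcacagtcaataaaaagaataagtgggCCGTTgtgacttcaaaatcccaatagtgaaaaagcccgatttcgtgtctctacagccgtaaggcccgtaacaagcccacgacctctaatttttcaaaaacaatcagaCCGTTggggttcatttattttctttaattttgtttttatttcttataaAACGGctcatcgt
CYCB1;2: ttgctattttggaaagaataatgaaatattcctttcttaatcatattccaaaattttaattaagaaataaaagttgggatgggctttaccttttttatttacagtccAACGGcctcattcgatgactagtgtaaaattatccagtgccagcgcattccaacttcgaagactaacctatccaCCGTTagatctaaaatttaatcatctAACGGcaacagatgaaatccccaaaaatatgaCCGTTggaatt
MAP65-3: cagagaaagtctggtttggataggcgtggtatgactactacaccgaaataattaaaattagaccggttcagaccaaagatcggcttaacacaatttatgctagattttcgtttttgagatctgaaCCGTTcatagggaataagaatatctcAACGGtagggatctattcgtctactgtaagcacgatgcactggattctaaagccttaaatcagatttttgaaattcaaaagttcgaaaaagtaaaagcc
AT5G15190: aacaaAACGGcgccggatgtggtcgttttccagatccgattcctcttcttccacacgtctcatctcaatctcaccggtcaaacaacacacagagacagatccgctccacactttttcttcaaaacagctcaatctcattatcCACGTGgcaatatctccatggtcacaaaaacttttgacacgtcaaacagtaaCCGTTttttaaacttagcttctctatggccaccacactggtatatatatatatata

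These windows held 3, 4, 2 and 2 matches to AACGG, respectively, and the E-box was found only in that of AT5G15190. A match to AACGG was found in 66.7% of the mitosis and cytokinesis list (18 of 27), in 38.9% of all genes higher in SPCH (81 of 208) and in 37.5% of those outside the list (72 of 192). Among all genes tested with a window it was found in 21% (4984 of 23724), and among genes lower in SPCH in 17.2% (30 of 174). The 192 genes outside the list still held 11 kinesins and other division genes, and a share without them was not computed. CACGTG showed no such spread, with 7.69% of genes higher in SPCH, 5.17% of genes lower in SPCH and 6.97% of all genes tested. Matches did not follow the calls closely. The windows of CDKB2;1, ATK1 and ATK5, all higher in SPCH, held 0 matches to AACGG. CYCB1;3, CYCB2;1, CYCB2;2 and CYCB2;3, which are on the list but did not pass, held 3 each. These shares are descriptions of letters in a window and not of binding. CYCB1;1 had medians of 4.75 and 3.11 CPM in SPCH and FAMA (0.63 ± 0.12, SE), CYCB1;2 had 13.6 and 5.94 CPM (1.55 ± 0.35, SE), and MAP65-3 had 7.47 and 3.11 CPM. AT5G15190 was 4.02, 8.72 and 13.2 CPM (lowest, median, highest) in SPCH and 2.49, 3.30 and 6.06 CPM in FAMA, with a log2 fold change of 1.21 ± 0.15 (SE, adjusted p = 0.000179, edgeR) and an NLS median of 23.6 CPM.

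Part of the stomatal lineage genes were higher in SPCH as well. Of 14 early lineage genes, 5 were higher in SPCH, none was lower and 9 did not pass (median 0.40, 3 values negative). Of 15 GMC genes, 6 were higher, none was lower and 9 did not pass (median 0.53, 2 values negative). Over all genes tested, 0.872% were higher in SPCH. The GMC genes that passed included the cell cycle genes CDKB1;1, CDKB1;2, CYCA2;2 and CYCA2;3, so this count is not fully separate from that of division genes. SDD1, a subtilisin-like protease that limits stomatal density (chromosome 1, 1061297 to 1063809, minus strand), had the largest fold change of the genes higher in SPCH. It stood at 22.7, 61.3 and 98.6 CPM (lowest, median, highest) in SPCH and 2.82, 15.3 and 23.7 CPM in FAMA, with 99.4, 162 and 326 CPM in NLS. All FAMA libraries but the highest thus lay below all SPCH libraries, and all NLS libraries lay above both lines. The log2 fold change was 2.23 ± 0.33 (SE, adjusted p = 0.00092, edgeR). The receptor kinase ERL1 (0.95 ± 0.17, SE), the receptor-like protein TMM (0.68 ± 0.17, SE), the SPCH partner SCRM2 (0.49 ± 0.11, SE) and SOL1, a CXC-domain DNA-binding protein (0.85 ± 0.19, SE, with 580 exon bases shared with a gene on the other strand), were the other early genes that passed. EPF2, a secreted peptide that limits lineage entry, stood at −0.28, and the polarity protein BASL at 0.58, and neither passed.

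Among the GMC genes, CDKB1;1 and CDKB1;2, kinases of the last symmetric division, had medians of 2.62 and 2.62 CPM in SPCH and 0.939 and 1.09 CPM in FAMA, with log2 fold changes of 1.20 ± 0.24 and 1.31 ± 0.24 (SE). CDKB1;2 shares 281 exon bases with a gene on the other strand. Their cyclin partners CYCA2;2 (0.97 ± 0.19, SE) and CYCA2;3 (0.64 ± 0.15, SE) passed too. MUTE, the factor that commits cells to the GMC state, was 1.28, 2.22 and 5.59 CPM in SPCH and 0.532, 0.996 and 2.82 CPM in FAMA (1.16 ± 0.27, SE, adjusted p = 0.0211, edgeR). Its log2 fold changes at 2, 3 and 4 h were 0.31, 1.21 and 1.94, each from the fit of that time point alone. The interaction test of edgeR called no gene (smallest adjusted p 0.979), so a change of the MUTE difference with time is not established. HDG2, a homeodomain factor of the epidermis, was 62.4, 135 and 268 CPM in SPCH and 61.8, 90.7 and 119 CPM in FAMA (0.68 ± 0.17, SE, adjusted p = 0.0438). It was past the threshold by a narrow margin and missed it without the FAMA 4 h library that carries no number (adjusted p = 0.0964). FLP and its paralog MYB88, which limit the GMC to a single division, stood at 0.53 and 0.20 and did not pass.

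Mature GC genes did not move together. Of 24, WSB, an ethylene response factor needed for GC differentiation, was higher in SPCH (0.63 ± 0.15, SE) and RBOHF, an NADPH oxidase of GC signalling, was lower (−0.43 ± 0.10, SE), and the median was 0.00. Of the 23 genes that the study selected for follow-up, 6 were higher in SPCH (SDD1, SLL1, SLL3, SBP2, WSB and HDG2) and 1 was lower (AT5G43450). Over all genes tested, 0.872% were higher and 0.73% were lower. As the study chose its 23 genes with the help of these libraries, their count is not independent evidence of a direction. The leucine-rich repeat gene SLL3 was 17.8, 66.0 and 105 CPM in SPCH and 3.08, 18.3 and 30.9 CPM in FAMA (2.06 ± 0.35, SE), and SLL1 had medians of 31.1 and 12.6 CPM (1.30 ± 0.21, SE), whereas SLL2 stood at 0.02. SBP2, a selenium-binding protein, had medians of 66.5 and 30.3 CPM (1.23 ± 0.21, SE). The oxygenase gene AT5G43450 had medians of 5.27 CPM in SPCH and 9.93 CPM in FAMA (−0.998 ± 0.199, SE). PDF1, an epidermal gene, had a log2 fold change of 1.32 but missed the threshold (adjusted p = 0.062, edgeR).

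**Figure D3:**
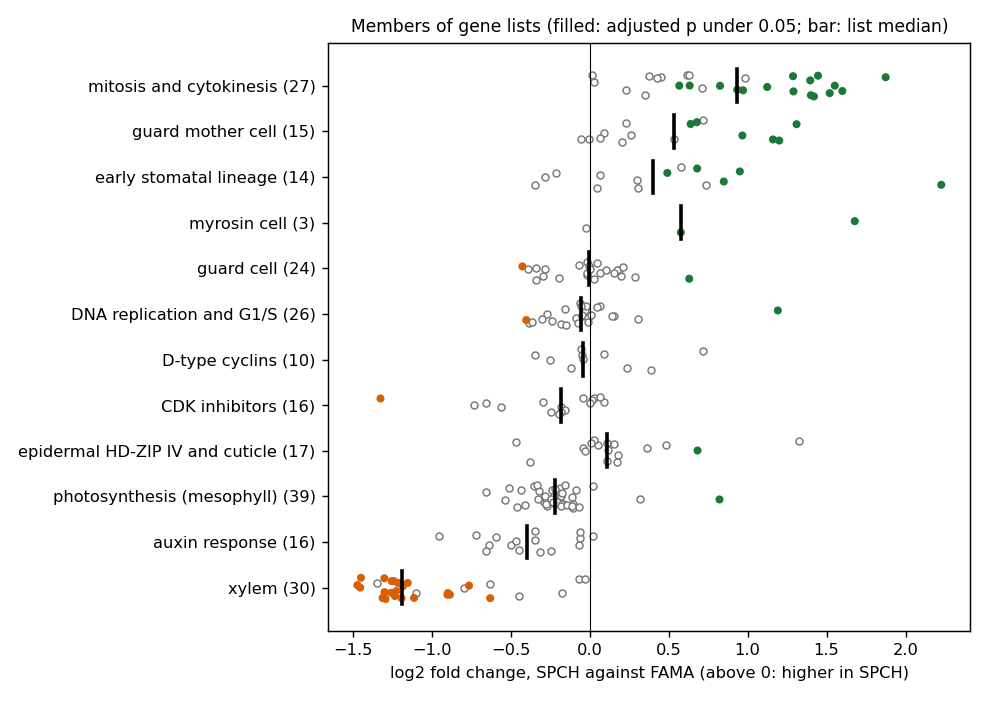
Log2 fold change of SPCH over FAMA for each tested member of the gene lists, on the horizontal axis, 1 point a gene and 1 row a list with its number of members, with members past the threshold filled and a bar at the list's median. All 27 mitosis and cytokinesis genes lie above 0 and all 30 xylem genes lie below 0, while GC genes and DNA replication genes lie on both sides.

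Genes higher in FAMA included a group of xylem genes, a list drawn up after the results were seen. Of its 30 members 22 were lower in SPCH and none was higher, beside 0.73% lower over all genes tested. All 30 log2 fold changes were negative, and their median was −1.19. XCP1 and XCP2 are proteases that clear the contents of dying vessel cells. XCP1 was 0.573, 3.05 and 4.76 CPM (lowest, median, highest) in SPCH and 3.99, 7.03 and 12.9 CPM in FAMA (−1.47 ± 0.26, SE, adjusted p = 0.0038, edgeR), and XCP2 had medians of 28.3 and 63.9 CPM (−1.30 ± 0.24, SE). The transcription factors that switch vessel fate on were among them, with VND6 at medians of 2.96 and 6.07 CPM (−1.31 ± 0.26, SE). Of the secondary wall cellulose synthases, CESA8 had medians of 11.5 and 27.0 CPM (−1.45 ± 0.30, SE), CESA7 had 7.87 and 16.0 CPM (−1.29 ± 0.31, SE) and CESA4 had 17.7 and 27.2 CPM (−0.76 ± 0.16, SE). CESA8 shares 562 exon bases with a gene on the other strand. MYB46, a master switch of secondary walls, missed the threshold (−1.35 ± 0.36, SE, adjusted p = 0.0609), and the protease genes XSP1 (−0.07) and MC9 (−0.03) were even.

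The summed level of the xylem list was 135, 195 and 263 CPM (lowest, median, highest) in SPCH and 248, 332 and 640 CPM in FAMA, so the lines overlapped only between 248 and 263 CPM. NLS lay across both, at 134, 241 and 451 CPM, and no member was at 0 in any SPCH or FAMA library. The 3 phloem genes on the lists stood at a summed 8.87 to 52.1 CPM in SPCH and 9.27 to 79.1 CPM in FAMA. With the summed xylem level as a covariate, an alternative added after the data were seen, 83 genes stayed higher and 9 lower in SPCH. In that edgeR fit the log2 fold change of AT3G23510 was −3.38 (adjusted p = 0.00164), and TGG2, SDD1, AUR1 and CDKB2;1 passed too. The log2 fold change of HAC4 was −1.63 and narrowly missed the threshold (adjusted p = 0.0647). Of the 382 genes, 339 kept their direction and 79 stayed past the threshold. This covariate nearly separates the lines, so its loss of calls cannot be told apart from the loss of the contrast itself. Without FAMA 3 h replicate 3, 14 of the xylem genes and 14 of the mitosis and cytokinesis genes passed, among 182 genes higher and 120 lower.

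**Figure D4:**
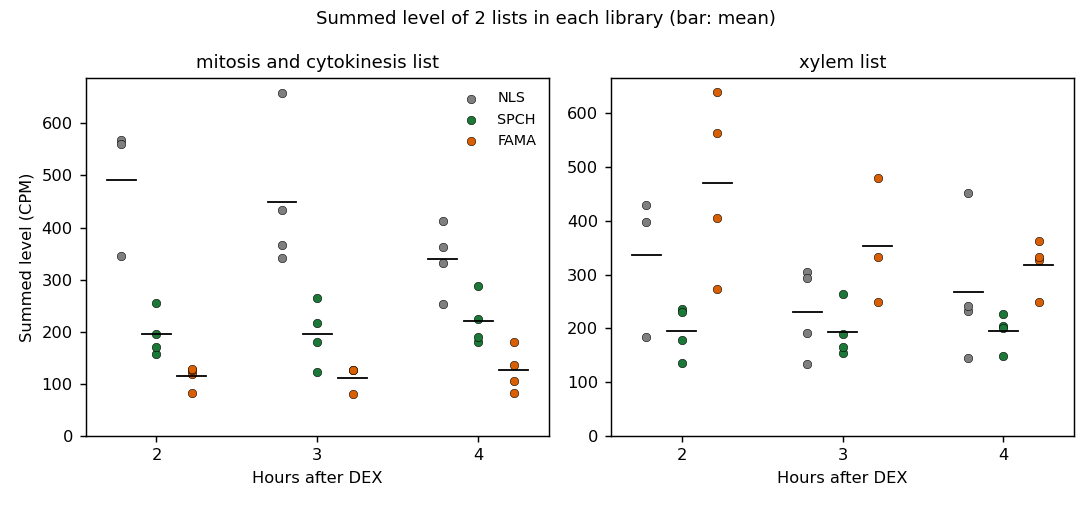
Summed level (CPM) of the mitosis and cytokinesis list and of the xylem list by hours after DEX in the NLS, SPCH and FAMA lines, 1 point a library, with a bar at the mean of the line at that time. Mitosis and cytokinesis genes are highest in NLS and lowest in FAMA, and xylem genes are higher in FAMA (248 to 640 CPM) than in SPCH (135 to 263 CPM).

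Of the 174 genes higher in FAMA, 147 were on no list, as were 173 of the 208 genes higher in SPCH. AT4G21920, an uncharacterized gene, was 0.310, 0.654 and 2.55 CPM (lowest, median, highest) in SPCH and 1.18, 3.18 and 5.84 CPM in FAMA (−2.04 ± 0.30, SE, adjusted p = 0.00092, edgeR), so the groups overlapped through its highest SPCH libraries. The germin-like protein gene GLP10 had medians of 3.62 and 5.87 CPM (−0.80 ± 0.12, SE), and TBL37, of a family that acetylates wall polymers, had medians of 34.6 and 51.4 CPM (−0.77 ± 0.13, SE). AT5G07800, a flavin-binding monooxygenase, had medians of 5.35 and 9.54 CPM (−1.14 ± 0.19, SE), and AT3G24240, a leucine-rich repeat receptor kinase, had medians of 0.667 and 1.76 CPM (−1.43 ± 0.26, SE). AT5G61340 was 3.42, 4.97 and 5.86 CPM in SPCH and 6.32, 7.64 and 18.9 CPM in FAMA (−0.87 ± 0.15, SE), with no overlap.

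Counts for lists of other cell types and processes are given beside 0.872% higher and 0.73% lower over all genes tested. At such shares a short list is likely to hold no call, so its count says little about it. Of 39 photosynthesis genes, RBCS1B, a small subunit of Rubisco, was higher in SPCH (0.82 ± 0.16, SE), although 36 of the 39 log2 fold changes were negative (median −0.22). Among 16 auxin response genes none passed with edgeR, 4 had an unadjusted p under 0.05 and 1 passed with DESeq2, and 15 of 16 values were negative (median −0.40). In the lists of cell wall genes (16), circadian clock genes (20), touch, wound and stress genes (15) and brassinosteroid genes (11), none passed with edgeR. Unadjusted p was under 0.05 for 3, 2, 2 and 0 of them, respectively, and DESeq2 called 1 cell wall gene and no gene of the other lists. Of 305 cytosolic ribosomal protein genes 1 passed, with 232 positive and 73 negative values, a pooled median of 0.09, and medians of −0.15, 0.24 and 0.23 at 2, 3 and 4 h.

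Libraries outside the comparison placed these genes further. Among the 208 genes higher in SPCH, the NLS median lay above both lines in 150, between them in 25 and below both in 33, so in most of them FAMA had the lowest median of the 3 lines and NLS the highest. For the 174 genes lower in SPCH, the NLS median lay between the lines in 149. Over all genes tested, it lay above both lines in 34.8%, between them in 25.9% and below both in 39.4%.

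SRDX-SPCH against SRDX-FAMA used none of the libraries of the native pair. Without the library that goes against its label, 1259 of 23758 genes passed (5.3%), 637 higher (2.68%) and 622 lower (2.62%) in SRDX-SPCH, and with all libraries 727 of 23814 (3.05%), 364 higher and 363 lower (1.53% and 1.52%). Of the 208 genes higher in SPCH, 63 were also higher in SRDX-SPCH and 1 (HDG2, −0.59 ± 0.09, SE) was lower, and 153 (73.6%) had the same sign, beside 53.4% of all genes with a positive value. The 63 were unevenly spread, as they made up 24 of the 33 genes with NLS below both lines and 30 of the 150 with NLS above both. TGG2 had a log2 fold change of 3.50 ± 0.24 (SE, adjusted p = 6.37e-09, edgeR) between the SRDX forms, with medians of 7566 CPM in SRDX-SPCH and 608 CPM in SRDX-FAMA (631 CPM with all libraries), and a log2 fold change of 2.87 with all libraries. LSH1 (3.10 ± 0.21, SE), HCHIB (3.28 ± 0.38, SE), PDLP7 (2.26 ± 0.20, SE), PIP2B (1.42 ± 0.13, SE) and AT3G58000, a VQ motif protein (2.81 ± 0.19, SE), also had larger values between the SRDX forms than between the native forms, a difference that was not tested.

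Over the mitosis and cytokinesis list the median of SRDX-SPCH against SRDX-FAMA was 0.06, and 1 of 27 genes passed (CDKB2;1, 0.80 ± 0.22, SE). Division genes outside the list that were higher in both SPCH forms included CDKB1;1 (0.87 ± 0.16, SE, between the SRDX forms), the cyclin CYCA1;1 (1.06 ± 0.21, SE), the kinase subunit CKS2 (0.66 ± 0.16, SE) and DRP5A, a dynamin-related protein (0.90 ± 0.23, SE). SDD1 was higher in both as well (0.79 ± 0.21, SE). Of the 174 genes lower in SPCH, 27 were also lower in SRDX-SPCH and 3 were higher, with the same sign in 153 (87.9%), beside 46.6% of all genes with a negative value. AT3G23510 was among the 27 (−2.80 ± 0.31, SE, adjusted p = 3.59e-06, edgeR). The 3 that turned were the F-box gene AT1G19160 (1.34 ± 0.15, SE), ZPR3, a small leucine zipper protein (1.25 ± 0.14, SE), and ENODL18, an early nodulin-like protein (0.84 ± 0.12, SE). The xylem list had a median of −0.97 between the SRDX forms, with 5 of 30 genes past the threshold.

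**Figure D5:**
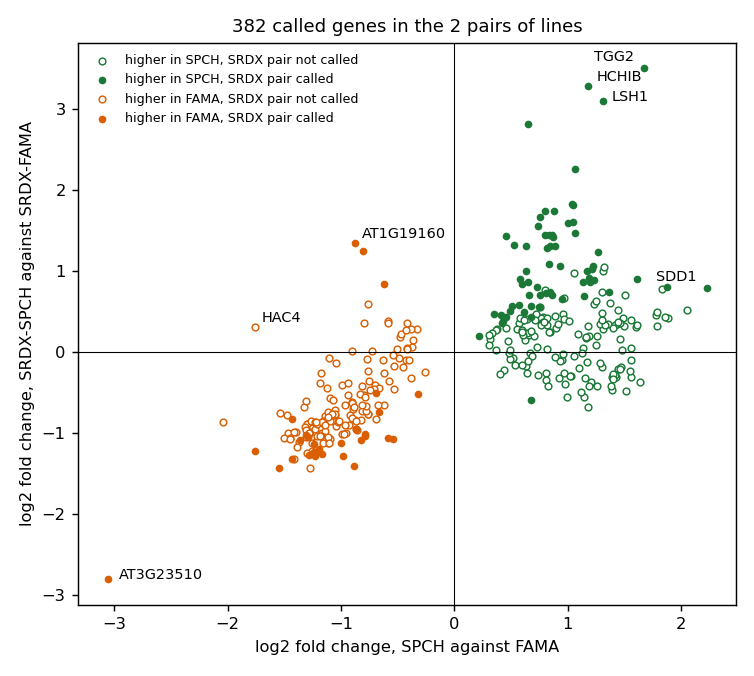
Log2 fold change of SPCH over FAMA (horizontal axis) against that of SRDX-SPCH over SRDX-FAMA without the library labelled SRDX-FAMA 4 h replicate 2 (vertical axis) for the 382 genes past the threshold in the native pair, 1 point a gene, filled where the SRDX pair passed the threshold too. TGG2, LSH1 and HCHIB lie at the upper right, AT3G23510 lies at the lower left, SDD1 lies at the far right, and HAC4 lies to the left and near 0 on the vertical axis.

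Single time points gave little. With edgeR, no gene of 22660 passed at 2 h (0%, smallest adjusted p 0.225, 1093 at an unadjusted p under 0.05) and none of 22413 at 4 h (0%, 0.101, 1078), and 1 of 22529 passed at 3 h (0.00444%, 2040), which was AT3G23510 (−3.47, adjusted p = 0.00143). DESeq2 called 157, 153 and 89 genes at 2, 3 and 4 h. No gene of 24547 had a difference that changed with time by the interaction test of edgeR (0%, smallest adjusted p 0.979, 766 at an unadjusted p under 0.05), and DESeq2 called 2. Among the 382 genes, the smallest interaction p values were those of EMB1873, LysoPL2, a lysophospholipase, and AT5G61340. LysoPL2 had log2 fold changes of −1.40, −0.25 and −0.64 at 2, 3 and 4 h, and EMB1873 had −0.15, −0.49 and −0.86. The xylem list had medians of −1.44, −1.12 and −0.80 at the same times, and the mitosis and cytokinesis list had 0.87, 0.88 and 0.89.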

How the data were processed

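RNA of sorted Venus-positive cells was sequenced as single-end 50 bp reads after SMART-Seq v4 amplification. The authors aligned reads to TAIR10 with STAR and counted them with HTSeq, and deposited 1 table of raw counts per gene for 57 libraries. Versions and the strand setting of the counting are not given in the sources used here. Amplified reads without molecular identifiers are not independent molecules.

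Counts were analysed in edgeR 4.0.16 (R 4.3.3) with filterByExpr (minimum count 10), TMM scaling and the quasi-likelihood test, with time point and line as terms, and p-values were adjusted over all genes tested (Benjamini-Hochberg). SE is the absolute log2 fold change over the root of F. The SPCH and FAMA rows were left out of library sizes and tests. DESeq2 1.42.0 and limma-voom (limma 3.58.1) served as alternatives, and the fit was tested on simulated data. A FAMA 4 h library whose column name ends in a digit instead of a letter was kept. It matched no library name, so no replicate number or letter is given for it here. By elimination it would be FAMA 4 h replicate 4. The fits with a replicate or letter block left it out. Libraries are separate samples of sorted cells, so p-values measure the spread between them. No library pair of a line and time was a duplicate (smallest chi-square per degree of freedom 14.2 over 81 pairs). Of 27655 genes, 27445 matched the RefSeq gene table of TAIR10.1, which gave names, positions and sequences.

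The comparison, its gene lists and tests were chosen with earlier results of these data known. The rule for named genes was the 12 smallest adjusted p values in each direction without overlap of the libraries, the 23 genes of the study, up to 4 members of each list, and the 3 smallest interaction p values. Since only 5 genes met the condition on overlap, the 12 smallest p values in each direction without it were used too. These genes, the xylem list, the kinesins, and further genes named in the text were chosen after their values were seen.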

Additional observations from a re-analysis of the deposited data

Results flagged for a closer look

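In 155 groups of 4 libraries of 1 line and time (27 genes and 4 list sums), 9 held a library whose gap to the nearest other exceeded Dixon's 95% critical value, where chance gives about 1 in 20 groups. PIP2B was 20.4 CPM in SPCH 3 h replicate 2, with the others at 33.4 to 35.3 CPM, and 27.4 CPM in SPCH 4 h replicate 1, with the others at 17.9 to 19.0 CPM. SDD1 stood at 6.02 CPM in FAMA 2 h replicate 2 against 15.3 to 16.8 CPM in the others, and CDKB2;1 at 2.01 CPM in the same library against 2.79 to 2.86 CPM. In FAMA libraries whose names end in a or b, SDD1 was 2.82 to 6.02 CPM and CDKB2;1 was 1.08 to 2.01 CPM. Those ending in e or f stood at 15.3 to 23.7 CPM and 2.79 to 4.92 CPM, respectively. Those ending in c or d stood at 6.74 to 16.8 CPM and 1.54 to 2.86 CPM. A difference by letter was not tested. AT2G16270 was 4.46 CPM in FAMA 4 h replicate 1 (others 6.94 to 7.26 CPM) and 12.6 CPM in SPCH 2 h replicate 1 (others 7.78 to 8.32 CPM). AT4G21920 reached 2.55 CPM in SPCH 2 h replicate 3, with the others at 0.424 to 0.572 CPM. AT1G19160 was 10.1 CPM in SPCH 3 h replicate 2 (others 14.5 to 14.8 CPM), and AT1G10780 was 1.55 CPM in the FAMA 4 h library without a number (others 1.31 to 1.34 CPM).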

How the results depend on the processing

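Against 382 genes (208 higher, 174 lower in SPCH), DESeq2 called 624 with 331 lower, and 381 of the 382 were among them. The 1 fit of 57 libraries left 101 genes lower, 11 of them on the xylem list. With the summed xylem level as a covariate, 92 genes passed (83 higher, 9 lower), with 8 mitosis and cytokinesis genes and 0 xylem genes. In that fit, 11 xylem genes turned in sign (FLA11 0.023, ESK1 0.26, CESA8 0.30, LAC4 0.12, COBL4 0.45, FLA12 0.035, FRA8 0.04, CESA7 0.42, VND2 0.12, MYB83 0.20 and VND3 0.35), where the covariate is the sum of their own list. With the first principal component as a covariate, also added after the data were seen, all 382 genes passed among 477. DESeq2 size factors, no filter, a minimum of 10 counts in each library, limma-voom, the letter block, the plastid covariate and a threshold of 0.1 gave 364 to 530 genes.

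Leaving out 1 library at a time gave 296 to 493 genes (161 to 309 higher, 119 to 185 lower), 13 to 18 mitosis and cytokinesis genes, 14 to 23 xylem genes and an interaction count of 0 to 0, and all 382 genes kept their direction in each. The 14 xylem genes came without FAMA 3 h replicate 3. At 3 and 4 h the contrast in 1 fit of 23 libraries called 2 and 7 genes. DESeq2 called 157, 153 and 89 genes at 2, 3 and 4 h and 2 genes for the interaction. For SRDX-SPCH against SRDX-FAMA, 727 genes passed with all libraries, 1259 without SRDX-FAMA 4 h replicate 2, and 1312 with DESeq2. The cause of these changes was not tested.

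Replicate numbers did not pair the libraries. Over 10 pairs, deviations correlated at −0.49 to 0.59, 4 pairs were over 0.1, and 3 libraries correlated best with their own number. Library names also end in a letter that does not follow these numbers. The SPCH and FAMA libraries of 2 h replicate 2 share the letter a and correlated at 0.51. Those of 4 h replicate 3 share the letter d and correlated at 0.59. The other pairs, with unlike letters, ran from −0.49 to 0.14. Correlation by letter was not tested further, and the main fit had no term for the letter. With the letter as a block (the letter block), in the libraries that have one, 334 of the 382 genes passed among 469. With the number as a replicate block, 137 genes passed (102 higher, 35 lower, 4 of the xylem list), against 265 (82 lower, 14 of the xylem list) in the same libraries without the block. Both lines were sequenced to similar depth, and low genes limit the precision.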
